A study of Mus musculus with 31 samples.

Results

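Expression of 9 genes that mark inhibitory interneurons or make their transmitter was followed in the mouse hippocampus through a T cell-driven encephalitis. The set holds the glutamate decarboxylase genes Gad1 and Gad2, the neuropeptide genes Sst, Vip, Npy and Cck, the calcium-binding protein gene Pvalb, the secreted matrix protein gene Reln and the transcription factor gene Lhx6. It was drawn up by name, and these are 9 of the 15648 genes in the count table. Gad2 was included because it encodes GAD65, the antigen of the antibodies in one of the human epilepsies that the study examined. All 9 genes had at least 15 counts in each of the 31 mice. Their median counts per mouse ranged from 292 for Vip to 6925 for Gad1, with a lowest single value of 53, for Vip.

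The mice were adult OT-I/Rag-/- animals (Rag1 deficient, by the study's methods), whose T cells all carry a transgenic receptor for an ovalbumin peptide presented by H-2Kb and which lack mature T and B cells with receptors of their own. Both dorsal CA1 regions were injected either with rAAV-hSyn-OVA-mCherry, which makes neurons express ovalbumin and mCherry (rAAV-OVA), or with rAAV-hSyn-mCherry, which encodes the fluorescent marker alone (rAAV-control). In both vectors the human synapsin promoter drives expression in neurons. RNA from the left hippocampus was sequenced at 2, 5, 8 and 28 days. Each group held 4 mice, except the rAAV-control group at day 8 with 3. All mice of both vectors had the same genotype. By their labels 23 mice formed batch 1 and the other 8 batch 2, the latter being 2 mice of each vector at day 2 and at day 28. Whole tissue was measured, so fewer cells of a type and less RNA per cell cannot be told apart.

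GABA is made from glutamate by the enzymes GAD67, encoded by Gad1, and GAD65, encoded by Gad2. The first supplies most of the basal GABA of the cell, and the second sits largely at nerve terminals. Hippocampal interneurons fall into classes named after what they contain: parvalbumin cells, many of which are fast-spiking basket cells around pyramidal somata, somatostatin cells that contact dendrites, often together with neuropeptide Y, VIP cells that mostly contact other interneurons, cholecystokinin basket cells, and reelin-containing neurogliaform cells. LHX6 is needed for the development of the parvalbumin and somatostatin classes. Cck is also transcribed in pyramidal neurons, and Reln in Cajal-Retzius cells, so neither transcript belongs to interneurons alone.

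One library stood apart from the rest. It came from replicate 4 of the rAAV-OVA group at day 28, mouse D844 of batch 2. The 5 striatal markers of a fixed list, Drd1, Drd2, Rgs9, Adora2a and Ppp1r1b, summed to 1053 CPM (counts per 1000000 counts of the library, after scaling) in D844 and to 47.0 to 106 CPM in the other 30 mice. Its level of each of these 5 genes was above that of every other mouse. The excitatory neuron genes Slc17a7, at 213 CPM, and Neurod6, at 7.69 CPM, were below all other mice. Cd8a, the only one of 6 listed T cell markers in the table, stood at 6.28 CPM in D844 and at 79.1 to 171 CPM in the other rAAV-OVA mice of day 28. Gad1 at 692 CPM and Gad2 at 630 CPM were the highest values of the series, whereas Vip at 1.83 CPM and Cck at 39.7 CPM were the lowest. Whether the tissue taken from D844 and its label are as recorded was not tested, so its values may not stand for the hippocampus of a rAAV-OVA mouse. The part of the striatal marker level in the results below was not tested either, and the fits of the members at day 28 are therefore given with and without D844. Total counts ranged from 19046977 to 57407902 per mouse and were 27920731 in D844.

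**Figure D1:**
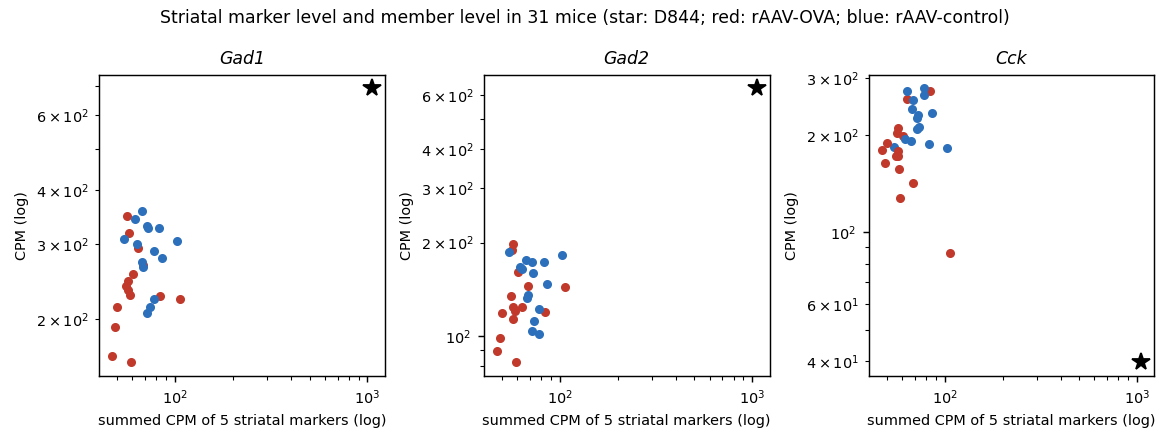
Level of Gad1, Gad2 and Cck (CPM, log axis) against the summed CPM of 5 striatal markers (log axis) in 31 mice. Mouse D844 (star) lies at 1053 CPM of striatal markers, away from the other 30 mice at 47.0 to 106 CPM, with the highest Gad1 and Gad2 and the lowest Cck.

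Promoter sequences are shown for 4 of the genes because Sst, Vip, Cck and Gad2 are the members whose upstream 250 bases hold the half-site TGACG, the core of the cAMP response element through which neuronal activity can act on peptide genes. They come from RefSeq (GRCm38.p6) and run 5′ to 3′ on the coding strand, up to the base before the annotated start. Capitals mark this half-site on either strand and, on the coding strand only, the core promoter motif TATAAA.
Gad2, chr2:22622077-22622326, plus strand: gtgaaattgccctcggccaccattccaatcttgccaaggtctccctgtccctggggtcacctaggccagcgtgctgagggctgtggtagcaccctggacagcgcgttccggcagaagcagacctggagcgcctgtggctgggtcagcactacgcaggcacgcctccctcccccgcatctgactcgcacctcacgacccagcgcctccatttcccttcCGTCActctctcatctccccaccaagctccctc
Sst, chr16:23890845-23891094, minus strand: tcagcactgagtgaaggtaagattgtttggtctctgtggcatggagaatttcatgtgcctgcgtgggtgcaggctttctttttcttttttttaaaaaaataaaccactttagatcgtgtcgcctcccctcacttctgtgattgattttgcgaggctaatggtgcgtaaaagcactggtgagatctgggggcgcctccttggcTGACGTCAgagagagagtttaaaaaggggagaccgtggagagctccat
Vip, chr10:5638968-5639217, plus strand: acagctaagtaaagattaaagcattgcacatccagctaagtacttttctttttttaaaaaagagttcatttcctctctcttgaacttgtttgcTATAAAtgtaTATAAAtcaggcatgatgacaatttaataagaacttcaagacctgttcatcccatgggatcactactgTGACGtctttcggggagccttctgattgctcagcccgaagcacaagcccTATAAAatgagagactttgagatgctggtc
Cck, chr9:121495695-121495944, minus strand: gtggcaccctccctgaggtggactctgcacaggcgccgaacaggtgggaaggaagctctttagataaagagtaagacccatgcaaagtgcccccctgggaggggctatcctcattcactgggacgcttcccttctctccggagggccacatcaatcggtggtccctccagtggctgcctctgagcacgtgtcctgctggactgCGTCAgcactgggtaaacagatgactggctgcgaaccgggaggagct

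The full palindrome TGACGTCA was present in the Sst window alone, where it began 48 bases before the start and accounted for both half-sites. It was found on either strand in 1.55% of 32851 mouse promoter windows of the same length. The half-site TGACG was found in 17.8% of them and in 4 of the 12 windows of the 9 genes, Pvalb having 2 annotated starts and Lhx6 having 3. In Cck it began 47 bases before the start and in Gad2 33 bases, on the opposite strand in both, and in Vip 79 bases on the coding strand. TATAAA was found in 7.59% of all windows and among the members in Vip alone, 3 times. The gamma interferon activation site TTCNNNGAA was present in 7.02% of all windows and in 0 of the 12. The GC box GGGCGG, read on both strands, was present in 32.7% of all windows and in 5 of the 12. A match in letters is a description of the window and not of a bound site.

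Levels of the 9 genes in the 15 rAAV-control mice were compared per unit of transcript length. Cck was highest, with a median of 283 CPM per kilobase of its longest coding transcript, followed by Sst at 199 and Gad1 at 89.2 CPM per kilobase. Npy followed at 59.2, Pvalb at 31.3 and Gad2 at 27.7 CPM per kilobase. Vip at 7.65, Reln at 5.9996 and Lhx6 at 4.396 CPM per kilobase were lowest. The ranges over the control mice overlapped for 7 of the 8 pairs of neighbours in this order, the exception being Gad2 and Vip, at 17.6 to 32.3 and 3.49 to 15.4 CPM per kilobase. Cck and Gad1 did not overlap, at 228 to 350 against 61.6 to 107 CPM per kilobase, nor did Gad1 and Gad2.

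**Figure D2:**
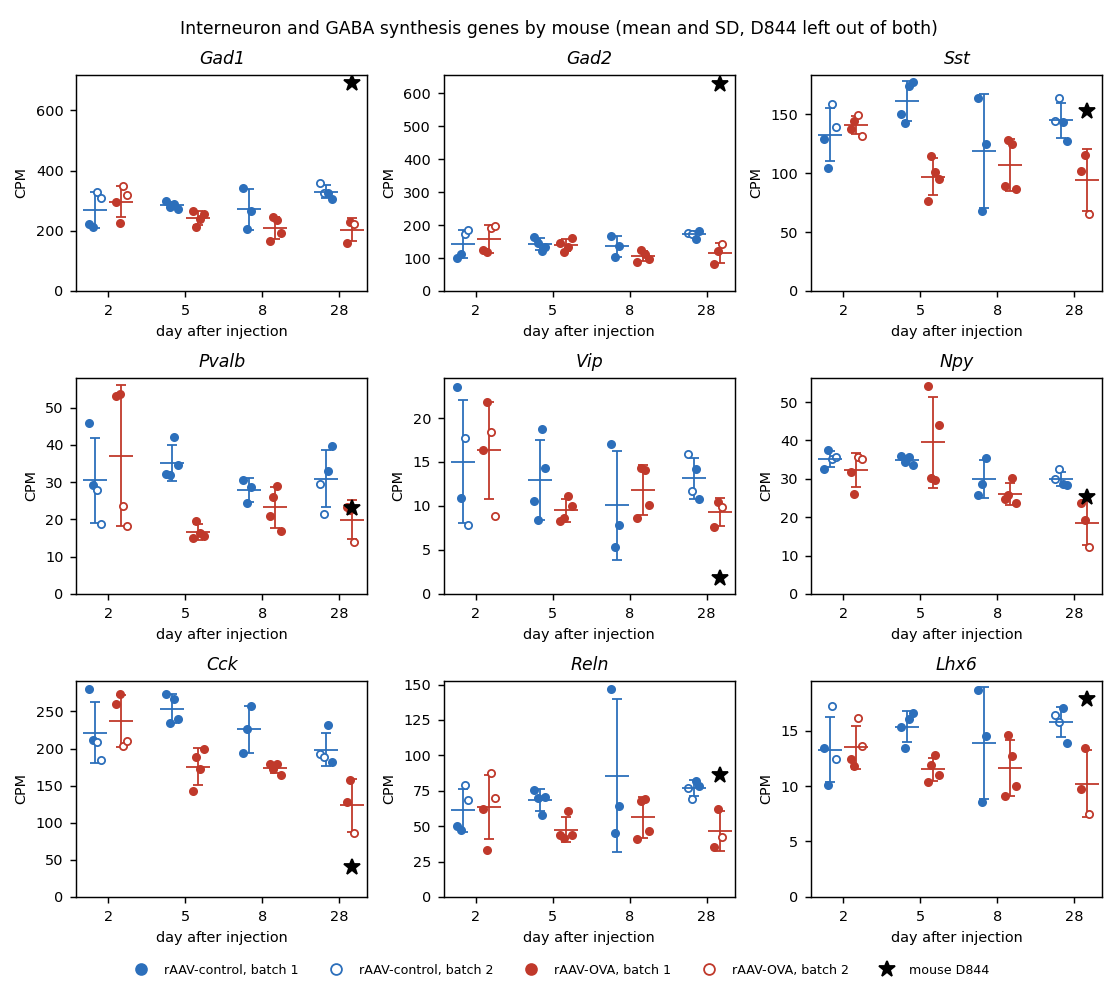
CPM of each of the 9 genes (linear axes from 0) by day after injection, one point per mouse, filled for batch 1 and open for batch 2. Horizontal marks and bars give the mean and SD of each group without D844, which is drawn as a star. At day 5 all rAAV-OVA mice lie below all rAAV-control mice for Gad1, Sst, Pvalb, Cck and Lhx6.

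Across the days, 2 of the 9 genes passed the limits at day 5, both lower in rAAV-OVA mice (Pvalb and Cck), and 1 at day 28, also lower (Cck). At days 2 and 8 the count was 0. A gene passed when edgeR's quasi-likelihood test, with 2 surrogate variables in the model, gave a false discovery rate (FDR, Benjamini-Hochberg over 15648 genes) of at most 0.05 and a Log2FC of at least 0.66 in size. Of all genes, 0% passed at day 2, 14.4% at day 5, 9.89% at day 8 and 17.7% at day 28, and 4.72% at day 5 and 4.88% at day 28 passed as lower in rAAV-OVA mice. At an unadjusted p under 0.05 in edgeR there were 0 members at day 2 and 2 at day 8 (Pvalb and Cck). The share of all genes at that level is not given here. DESeq2 and limma each passed 0 members at both days. Of all genes they passed 0.0639% and 0% at day 2 and 10.5% and 9.76% at day 8. Where nothing says otherwise, a Log2FC is that of rAAV-OVA over rAAV-control from the edgeR model, with its SE. Nothing in the labels says whether mice of a group shared a litter or cage.

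Markers of other cells shifted beside the members at days 5, 8 and 28. At day 5 4 of 5 oligodendrocyte markers passed as lower (median -0.93, or -0.76 without D844), or 2 of 5 without surrogate variables, and their sum was 2679 to 3956 CPM in rAAV-OVA mice and 4209 to 7264 CPM in controls. At the same day 3 of 5 microglial markers passed as higher (median 0.73, sums of 639 to 708 against 306 to 505 CPM), as did all 5 monocyte markers (median 4.72, sums of 185 to 328 against 0.716 to 7.16 CPM) and Cd8a (5.45 ± 0.65). At day 8 2 of 5 microglial markers (Csf1r and Aif1, or none with no surrogate variables; sums of 617 to 937 against 259 to 742 CPM), all 5 monocyte markers (median 3.27; sums of 77.1 to 279 against 1.84 to 48.4 CPM) and Cd8a (5.15 ± 0.64) passed as higher. At day 28 Cd8a passed as higher (7.27 ± 0.78), and 4 of 5 microglial and 4 of 5 monocyte markers passed as higher with and without D844, while 0 of 5 oligodendrocyte markers passed.

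Markers of other regions and of vessels shifted too. Of 5 CA1 pyramidal cell markers Fibcd1 passed as lower at day 5 with and without D844 and 3 at day 28 (Fibcd1, Pou3f1 and Mpped1), or Pou3f1 alone at day 28 without D844. The CA1 marker sum was 453 to 530 against 721.6 to 798 CPM at day 5 and, without D844, 411 to 526 against 611 to 753 CPM at day 28. Of 5 dentate granule cell markers 1 passed as lower at each of days 5, 8 and 28, Tdo2 at day 5, C1ql2 at day 8 and Dsp at day 28, the last not without D844, when Calb1 was added at day 5. Of 5 striatal markers Drd1 and Adora2a passed as higher at day 5, with and without D844, and Ppp1r1b as lower without D844, while the sum of the 5 was 50.2 to 68.1 against 63.4 to 85.4 CPM, and neither passed with all mice and no surrogate variables. Adora2a also passed as higher at day 8, and at day 28 all 5 did, or Adora2a alone without D844. Of 5 choroid plexus markers 4 passed as lower at day 5 (Ttr, Folr1, Kcnj13 and Kl; median -3.98, or -3.76 without D844), with sums of 40.8 to 127 CPM against 38.3 to 3721 CPM, and 0 passed when the surrogate variables were left out, with or without D844. Of 6 astrocyte markers Gja1 passed as lower at day 5 and Gfap as higher at day 28 (1.10 ± 0.42, or 1.41 ± 0.50 without D844, when Slc1a3 passed as higher too). Without surrogate variables Gfap and Aqp4 passed as higher at both days, with and without D844. At day 28 3 of 4 endothelial markers passed as higher (Cldn5, Pecam1 and Cdh5; median 1.02, or 1.27 without D844, when the same 3 passed), with sums of 158 to 273 CPM against 110 to 143 CPM. Of 4 thalamic markers 2 passed as higher at day 8 (Prkcd and Lef1) and 3 at day 28 (Tcf7l2, Prkcd and Lef1; median 1.05), or Lef1 alone at day 28 without D844 (median 0.30). Of 4 neocortical markers Rspo1 passed as higher at days 5 and 28 and Fezf2 as lower at day 28, and without D844 neither passed at day 28, although Rspo1 did when the surrogate variables were left out as well (1.19 ± 0.39). CPM are shares of all counts, and the part of these shifts in the members' values was not tested.

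Read directly from the CPM, the groups separated more often than these counts show. At day 2 all 9 genes overlapped between the vectors, and 1.94% of all genes were lower in every rAAV-OVA mouse than in every rAAV-control mouse. At day 5 this was so for 5 of 9 members and 19.6% of all genes, and at day 8 for 1 member, Cck, and 11.9% of all genes. At day 28 it held for 3 of 9 members, Vip, Npy and Cck, and 14% of all genes. Without D844 it held for 8 of 9 at day 28, all but Pvalb, and 24.7% of all genes. No member was higher in every rAAV-OVA mouse at any day.

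Gad1 stood at 294, 227, 348 and 318 CPM in the rAAV-OVA mice of day 2 and at 223, 214, 330 and 308 CPM in their controls. The values overlapped, and in both vectors the last 2 mice, from batch 2, were the higher ones. At day 5 the rAAV-OVA mice had 267, 213, 239 and 254 CPM and the rAAV-control mice 299, 278, 289 and 271 CPM. All 4 rAAV-OVA mice were therefore below all controls, and yet the model with surrogate variables gave a Log2FC of 0.17 ± 0.18 (SE; FDR = 0.52, edgeR). Leaving out D844, which belongs to another day, turned that value to -0.07 ± 0.12 (FDR = 0.69), and leaving out the surrogate variables as well gave -0.19 ± 0.17 (FDR = 0.41). None of these 3 fits called Gad1 at this day.

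At day 8 Gad1 was at 164, 245, 234 and 192 CPM in rAAV-OVA mice and at 342, 207 and 264 CPM in controls, so that the groups overlapped (Log2FC -0.18 ± 0.19, FDR = 0.51). At day 28 it was at 159, 228 and 223 CPM in the first 3 rAAV-OVA mice and 692 CPM in D844, against 326, 305, 357 and 327 CPM in the controls. The first 3 lay below every control and D844 above every control. The Log2FC was 0.17 ± 0.18 with all mice (FDR = 0.49) and -0.17 ± 0.16 without D844 (FDR = 0.47). Without D844 and without surrogate variables it was -0.64 ± 0.19 (FDR = 0.0084), short of the limit of 0.66. Within batch 1 the mean was 0.613 times that of the controls (n = 2 and 2), and in batch 2 without D844 the 1 remaining rAAV-OVA mouse was at 0.652 times the mean of its 2 controls.

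Gad2 followed Gad1 closely. Its values at day 2 were 123, 119, 190 and 198 CPM in rAAV-OVA mice and 101, 111, 173 and 186 CPM in controls. The 4 mice of batch 1 ranged from 101 to 123 CPM and the 4 of batch 2 from 173 to 198 CPM, a separation by batch in both vectors. At day 5 the rAAV-OVA mice had 145, 119, 135 and 160 CPM and the controls 164, 146, 122 and 132 CPM. Unlike Gad1, Gad2 overlapped between the groups at this day, and its Log2FC of 0.43 ± 0.27 (FDR = 0.26) was 0.05 ± 0.17 without D844, while leaving out rAAV-control replicate 1 of day 8 raised it to 0.72, which passed. The day 8 values were 89.3, 124, 113 and 98.1 CPM in rAAV-OVA mice and 167, 104 and 135 CPM in controls.

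At day 28 the first 3 rAAV-OVA mice had 82.3, 120 and 144 CPM of Gad2 and D844 had 630 CPM, whereas the controls had 159, 182, 176 and 173 CPM. As for Gad1, the 3 mice lay below and D844 above all controls. With all mice the Log2FC was 0.57 ± 0.27 (FDR = 0.10), and without D844 it was -0.14 ± 0.22 (FDR = 0.67). Without D844 and surrogate variables it was -0.52 ± 0.23 (FDR = 0.067). With D844 kept, leaving out any one of rAAV-OVA replicates 1 and 2 or rAAV-control replicate 2 of day 28, or rAAV-control replicate 1 of day 8, made Gad2 pass as higher, with values up to 0.89. Scaled on 10 pan-neuronal genes instead of on all genes, Gad2 at 1.11 and Gad1 at 0.70 passed as higher at day 28 with D844 included, in a scaling that set the median of all genes at 0.56. The Gad2 level was 42.0% to 64.5% of the Gad1 level in 30 mice and 91.0% in D844. At day 5 this percentage was 54.3 to 63.0 in rAAV-OVA mice and 42.3 to 54.9 in controls, ranges that overlapped only at their edges.

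Sst, the somatostatin gene, separated the groups at day 5. It stood at 76.7, 115, 101 and 94.8 CPM in rAAV-OVA mice and at 151, 143, 174 and 177 CPM in controls, so that the highest rAAV-OVA mouse was below the lowest control. The Log2FC was -0.46 ± 0.17 (FDR = 0.047), within the FDR limit and short of the fold limit. It was -0.46 ± 0.16 without D844 (FDR = 0.026), and -0.70 ± 0.20 without D844 and surrogate variables (FDR = 0.0082), which passed both limits. With all mice and no surrogate variables it was -0.73 ± 0.22 (FDR = 0.011), which also passed both, and 2 of 9 members (Sst and Pvalb) and 5.55% of all genes passed as lower in that fit. At day 5, 3 of 9 members (Sst, Pvalb and Cck) and 14.1% of all genes were lower by the FDR limit alone.

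At day 2 Sst ranged from 132 to 149 CPM in rAAV-OVA mice and from 104 to 158 CPM in controls. Its day 8 values were 88.8, 128, 124 and 86.5 CPM against 164, 67.8 and 125 CPM in the controls. The low control, replicate 2 of its group, also had the lowest Gad1, Gad2, Vip, Reln and Lhx6 values among the 3 control mice of day 8, and replicate 1 had the highest of each. Replicate 2 had the highest Cd8a level of the 3 (9.73 CPM, against 0.517 and 1.09 CPM) and the highest sums of the microglial markers (742, against 259 and 366 CPM) and the monocyte markers (48.4, against 1.84 and 9.59 CPM), whose part in its member values was not tested. The day 8 Log2FC of Sst was -0.10 ± 0.18 (FDR = 0.73) with this mouse and -0.33 ± 0.19 (FDR = 0.22) without it. At day 28 Sst stood at 102, 115 and 65.2 CPM, and 153 CPM in D844, against 144, 127, 144 and 164 CPM. Only the 3 mice other than D844 were below all controls. The Log2FC was -0.15 ± 0.17 with all mice (FDR = 0.54), -0.04 ± 0.20 without D844 (FDR = 0.90), and -0.57 ± 0.22 without D844 and surrogate variables (FDR = 0.038).

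Vip, the gene of vasoactive intestinal peptide, did not pass at any day with all mice. At day 5 it was at 8.26, 8.69, 11.1 and 9.94 CPM in rAAV-OVA mice and 10.6, 8.37, 18.7 and 14.3 CPM in controls (Log2FC -0.17 ± 0.38, FDR = 0.77). At day 2 it ranged from 8.81 to 21.8 and from 7.88 to 23.5 CPM, and at day 8 from 8.63 to 14.4 and from 5.33 to 17.04 CPM. These ranges overlapped. At day 28 the rAAV-OVA mice had 7.56, 10.5 and 9.94 CPM, and 1.83 CPM in D844, all below the controls at 14.2, 10.8, 15.9 and 11.7 CPM. The Log2FC of -0.49 ± 0.41 (FDR = 0.37) was 0.23 ± 0.26 without D844 and -0.44 ± 0.36 without D844 and surrogate variables, and no fit of these 3 passed. Leaving out rAAV-OVA replicate 3 of day 28 with D844 kept made Vip pass as lower, at -0.86.

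Npy, whose peptide dampens transmitter release from excitatory terminals, was below all controls in every rAAV-OVA mouse at day 28 and not at day 5. At day 5 the rAAV-OVA mice had 54.3, 30.2, 29.6 and 44.0 CPM and the controls 36.1, 34.4, 35.6 and 33.5 CPM. In that group 2 mice were thus above and 2 below all controls (Log2FC 0.20 ± 0.18, FDR = 0.44). At day 28 the rAAV-OVA mice had 23.8, 19.2, 12.3 and 25.3 CPM, the last in D844, and all were below the controls at 28.7, 28.4, 29.9 and 32.5 CPM. The Log2FC was -0.56 ± 0.18 (FDR = 0.021), within the FDR limit and short of the fold limit. Without D844 it was -0.56 ± 0.22 (FDR = 0.066), and without surrogate variables as well -0.65 ± 0.19 (FDR = 0.0081). At day 28, 2 of 9 members (Npy and Cck) and 14.3% of all genes were lower by the FDR limit alone, and without D844 1 of 9 (Cck) and 6.05% of all genes. Without D844 and surrogate variables this held for 5 of 9 members (Gad1, Sst, Npy, Cck and Lhx6) and 18.3% of all genes.

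The difference between the 2 responses of Npy, day 28 minus day 5, was -0.76 ± 0.24 on the log2 scale (FDR = 0.048), and 9.48% of all genes passed this test. Without D844 the same difference was -0.73 ± 0.26 (FDR = 0.11), without surrogate variables -0.75 ± 0.25 (FDR = 0.095), and without both -0.86 ± 0.26 (FDR = 0.051), so that it passed in 1 of these 4 fits. With all mice and surrogate variables Npy was the only member for which this difference passed. Its day 2 values ranged from 26.1 to 35.8 and from 32.6 to 37.6 CPM, and those of day 8 from 23.8 to 30.2 and from 25.8 to 35.3 CPM, with Log2FC of -0.09 ± 0.17 and -0.13 ± 0.19.

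Cck fell at day 5 and at day 28. At day 5 it stood at 142, 189, 172 and 199 CPM in rAAV-OVA mice and at 274, 235, 266 and 240 CPM in controls. At day 28 the rAAV-OVA mice had 128, 157 and 86.3 CPM and D844 39.7 CPM, against 231, 182, 192 and 188 CPM. Every rAAV-OVA mouse was below every control at both days, and the same was seen at day 8, with 180, 172, 179 and 164 CPM against 195, 226 and 257 CPM. At day 2 the values overlapped, at 203 to 274 and 185 to 280 CPM. The Log2FC was 0.01 ± 0.20 at day 2, -0.74 ± 0.21 at day 5 (FDR = 0.011), -0.52 ± 0.22 at day 8 (FDR = 0.096, passing when rAAV-OVA replicate 2 or 3 of day 2 or replicate 3 of day 28 was left out) and -1.22 ± 0.22 at day 28 (FDR = 0.00051). Without D844 it was -0.49 ± 0.15 at day 5 (FDR = 0.014), which no longer met the fold limit, nor did it when rAAV-OVA replicate 1 of day 5 was left out, and -0.70 ± 0.19 at day 28 (FDR = 0.0096), which still did. With all mice and no surrogate variables the day 5 value was -0.53 ± 0.23 (FDR = 0.077), which met neither limit. Without D844 and surrogate variables it was -0.63 ± 0.16 at day 28 (FDR = 0.0032), short of the fold limit. Within batch 1 the day 28 mean was 0.690 times that of the controls, and in batch 2 the mouse other than D844 was at 0.453 times the mean of its controls.

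Excitatory neuron genes and pan-neuronal genes were lower beside Cck at days 5 and 28. The 8 listed genes (among them Slc17a7, Neurod2, Neurod6 and Camk2a) summed to 5110 to 6518 CPM in rAAV-OVA mice and 8026 to 10401 CPM in controls at day 5. At day 28 the sums were 2564 to 6555 CPM without D844 against 7419 to 8564 CPM. At day 8, when Cck did not overlap, these sums did, at 5853 to 7775 against 7488 to 10677 CPM, and 0 of the 8 passed. Of the 8 genes, 3 passed as lower at day 5 and 7 at day 28, or 3 without D844, with medians of -0.65, -1.13 and -0.58. The 10 pan-neuronal genes had medians of -0.29 at day 5 and -0.52 at day 28, or -0.42 without D844, beside -0.01, 0.01 and 0.03 for all genes. Their sums did not overlap either, at 5355 to 6004 against 6943 to 8373 CPM at day 5. At day 28 without D844 they were 3113 to 5982 against 6905 to 7838 CPM. Which cells lost Cck transcript was not tested.

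Pvalb had the largest day 5 difference of the 9 genes. It was at 14.9, 19.5, 16.4 and 15.4 CPM in rAAV-OVA mice and at 32.04, 31.9, 42.1 and 34.6 CPM in controls. The group means were 16.6 ± 2.07 and 35.1 ± 4.77 CPM (SD, n = 4 each), with no overlap. The Log2FC was -0.96 ± 0.21 (FDR = 0.0013), and it passed in each of the 3 models at this day, with -0.83 ± 0.18 without D844 (FDR = 0.0013) and -1.05 ± 0.28 without D844 and surrogate variables (FDR = 0.0048). Without D844 1 of 9 members (Pvalb) passed as lower at day 5, with 4.63% of all genes, and 2 of 9 (Sst and Pvalb) when the surrogate variables were also left out, with 5.2% of all genes. At day 28 without D844 1 of 9 (Cck) passed as lower, with 2.3% of all genes. Without surrogate variables as well 0 of 9 did, with 6.72% of all genes, and with the batch label in their place 2 of 9 (Pvalb and Cck), with 6.69%.

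At the other days the levels of Pvalb overlapped between the vectors, at day 28 both with and without D844. At day 8 it was at 21.01, 25.9, 29.1 and 16.8 CPM against 30.5, 24.4 and 28.7 CPM (Log2FC -0.50 ± 0.21, FDR = 0.099). Without D844 the day 8 Log2FC was -0.54 ± 0.19 (FDR = 0.043), short of the fold limit. With all mice and no surrogate variables it was -0.27 ± 0.30 (FDR = 0.58). By the FDR limit alone 0 members and 4.35% of all genes were lower at day 8, and without D844 2 (Pvalb and Cck) and 8.03%. At day 28 it was at 23.4, 22.5 and 13.98 CPM, and 22.9 CPM in D844, against 33.1, 39.6, 29.5 and 21.5 CPM (Log2FC -0.39 ± 0.21, FDR = 0.15). Without D844 the day 28 Log2FC was -0.53 ± 0.23 (FDR = 0.10), and -0.58 ± 0.30 (FDR = 0.12) when the surrogate variables were left out too. With the batch label in place of the surrogate variables it was -0.73 ± 0.20 without D844 (FDR = 0.0051), which met both limits, and -0.56 ± 0.21 with D844 (FDR = 0.035), short of the fold limit. Within batch 1 both rAAV-OVA mice of day 28 were below both controls (means of 22.9 and 36.4 CPM), and in batch 2 the rAAV-OVA mouse other than D844, at 13.98 CPM, was below both controls (mean 25.5 CPM). Pvalb also followed the batch. At day 2 the batch 1 mice had 53.0 and 53.6 CPM with rAAV-OVA and 46.0 and 29.3 CPM with rAAV-control, and the batch 2 mice 23.5 and 18.2 against 27.8 and 18.7 CPM. The day 2 Log2FC was 0.49 ± 0.24 within batch 1 and -0.17 ± 0.24 within batch 2, and neither passed. All mice of day 5 belonged to batch 1.

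Reln, whose product steers neuronal position and acts on dendrites and synapses, did not pass at any day. At day 5 it was at 43.7, 41.5, 60.9 and 43.9 CPM in rAAV-OVA mice and at 75.4, 70.2, 57.6 and 70.9 CPM in controls. Of the rAAV-OVA mice 3 of 4 were below all controls (Log2FC -0.11 ± 0.17, FDR = 0.65). At day 28 it was at 35.5, 62.1 and 42.0 CPM, and 86.2 CPM in D844, against 82.2, 78.5, 76.9 and 68.8 CPM. Here the 3 mice were below and D844 above all controls, with a Log2FC of -0.09 ± 0.17 with all mice, 0.20 ± 0.24 without D844 and -0.66 ± 0.32 without D844 and surrogate variables (FDR = 0.096). The highest value of the series, 147 CPM, was in rAAV-control replicate 1 of day 8, whose 2 companions had 45.4 and 64.5 CPM.

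Lhx6, at 7.47 to 18.6 CPM, moved little in the model and more in the raw values. At day 5 the rAAV-OVA mice had 10.4, 11.9, 12.8 and 10.99 CPM and the controls 15.3, 13.4, 16.1 and 16.6 CPM, without overlap. The Log2FC was -0.11 ± 0.16 (FDR = 0.65), or -0.38 ± 0.20 (FDR = 0.14) without D844 and surrogate variables. At day 28 the values were 9.72, 13.5 and 7.47 CPM, and 17.9 CPM in D844, against 17.1, 13.9, 16.4 and 15.8 CPM. The Log2FC was -0.11 ± 0.16 with all mice and 0.03 ± 0.17 without D844, and -0.57 ± 0.22 without D844 and surrogate variables (FDR = 0.037). As for Gad1, the choice of covariates moved the value of Lhx6 by more than its SE.

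**Figure D3:**
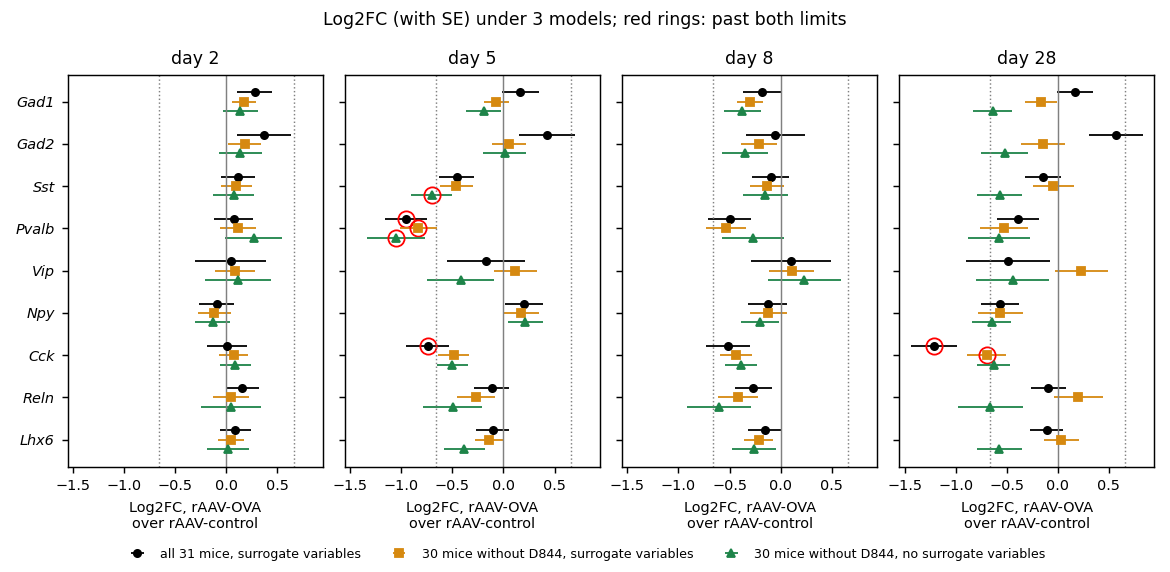
Log2FC of rAAV-OVA over rAAV-control (points, with SE as bars) for the 9 genes at each day under 3 models, with dotted lines at the fold limit of 0.66 and red rings for genes past both limits. Pvalb at day 5 is ringed in all 3 models, Cck at day 28 in 2, and Gad2 at day 28 lies at 0.57, -0.14 and -0.52 in turn.

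Whether the response to rAAV-OVA differed among the 4 days was tested for each gene with an interaction term. It did for 2 of 9 members, Pvalb (FDR = 0.038) and Cck (FDR = 0.019), and for 32.8% of all genes. Without D844 both still passed (FDR = 0.033 and 0.048), with 29.1% of all genes. With no surrogate variables neither passed (FDR = 0.060 and 0.086), beside 25.3% of all genes, and without D844 as well Cck alone did (FDR = 0.059 for Pvalb and 0.048 for Cck), which is 1 of 9 members beside 31% of all genes. Leaving out 1 mouse at a time, D844 included, kept both in 15 of 31 cases, Cck alone in 15, and neither when rAAV-OVA replicate 1 of day 2 was left out. For the other 7 members the FDR ranged from 0.084 for Npy to 0.76 for Vip. Among the rAAV-control mice alone, 0 of 9 members and 2.89% of all genes differed among the days (edgeR, FDR of the members from 0.42 to 0.98). At an unadjusted p under 0.05 this count was also 0. DESeq2 and limma gave 0 members as well, beside 6.28% and 0.965% of all genes.

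Other genes of inhibitory transmission were read from 6 lists. Of the 6 genes for GABA transport and breakdown, 0 passed at days 2, 5 and 8, and at day 28 the vesicular GABA transporter Slc32a1 passed as higher (0.81 ± 0.27, FDR = 0.022). It did not pass without surrogate variables (0.71 ± 0.37, FDR = 0.13). Without D844 none of the 6 passed at day 28, and the GABA transporter gene Slc6a13 passed as lower at day 8 (-1.37 ± 0.44, FDR = 0.024). Slc6a13 did not pass at day 8 when the surrogate variables were left out, with or without D844. The level of Slc32a1 in D844 was 256 CPM and in the other 30 mice 32.1 to 72.0 CPM. At day 5 the 6 genes summed to 560 to 769 CPM in rAAV-OVA mice and 1023 to 1135 CPM in controls, without overlap, and without surrogate variables 2 of 6 passed as lower, the GABA transporter gene Slc6a11 (-0.71 ± 0.21) and Aldh5a1 (-0.72 ± 0.15), which serves GABA breakdown. Both also passed when D844 was left out of that fit (-0.68 ± 0.17 and -0.69 ± 0.13). Median Log2FC of the list was -0.45 at day 5 and 0.23 at day 28, or -0.53 and -0.09 without D844.

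Of 12 listed transcription factors of the GABAergic lineage 11 were in the table. None passed at days 2, 5 or 8, and at day 28 7 passed as higher and 1 as lower. The largest were Sp8 (2.05 ± 0.66), Dlx6 (1.68 ± 0.46), Sp9 (1.32 ± 0.40) and Dlx2 (1.03 ± 0.35), which direct the formation of forebrain inhibitory neurons. Without D844 only Nr2f2 passed (0.93 ± 0.33, FDR = 0.040), which is also transcribed in vascular cells, and without surrogate variables as well none did (Nr2f2 0.46 ± 0.31, FDR = 0.23). With all mice and no surrogate variables 3 passed as higher (Dlx6, Sp8 and Sp9) and 1 as lower (Npas1). Dlx1, Dlx2, Dlx5, Dlx6, Sp8 and Sp9 were each higher in D844 than in any of the other 30 mice.

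Among 19 other interneuron class genes, 1 passed as higher and 1 as lower at day 5. These were Pnoc, the nociceptin precursor (1.31 ± 0.29, FDR = 0.0015), and Adarb2 (-0.68 ± 0.22, FDR = 0.024). Without D844 Pnoc passed again (1.00 ± 0.21), together with Lamp5 as lower (-0.72 ± 0.17). At day 28 1 passed as higher, Tac1 (1.85 ± 0.53), and 6 as lower, led by Cort (-1.97 ± 0.45), Crhbp (-1.39 ± 0.31) and Adarb2 (-1.11 ± 0.23). Without D844 only Adarb2 passed (-0.68 ± 0.25, FDR = 0.046). When the surrogate variables were left out as well, 9 of the 19 passed as lower, Cort (-1.72 ± 0.41), Crhbp (-1.04 ± 0.23) and Adarb2 (-1.03 ± 0.25) among them, and Tac1 at -0.82 ± 0.29.

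On the receiving side, 2 of 14 GABA receptor subunit genes passed as lower at day 5, both of extrasynaptic receptors. They were Gabra5 (-1.21 ± 0.22, FDR = 0.00030) and Gabrd (-1.06 ± 0.28, FDR = 0.0067), and both passed without D844 (-1.06 ± 0.22 and -1.23 ± 0.21). At day 28 6 passed as lower, among them Gabra5 (-1.22 ± 0.23) and the GABA-B subunit gene Gabbr2 (-0.69 ± 0.16). Without D844 4 passed as lower, among them Gabra5 (-0.87 ± 0.27) and Gabra4 (-0.74 ± 0.23). No subunit gene passed as higher at any day, and without D844 Gabrd passed as lower at day 8 (-0.79 ± 0.22, FDR = 0.010). The list medians were -0.30 at day 5, -0.40 at day 8 and -0.39 at day 28, the last being -0.48 without D844. Of 5 inhibitory synapse scaffold genes, Slitrk3 passed as lower at day 28 (-0.95 ± 0.21), and none did without D844. Without D844 and surrogate variables 8 of the 14 subunit genes passed as lower at day 28, and Slitrk3 did again (-0.81 ± 0.24). Slitrk3 also passed as lower at day 8 when the surrogate variables were left out, with and without D844.

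The receptors of the peptides and of reelin, 14 genes, moved in both directions at day 5. The somatostatin receptor gene Sstr2 was higher (1.64 ± 0.30, FDR = 0.00033), while Vipr2 (-1.22 ± 0.30), Sstr4 (-0.88 ± 0.21) and Npy1r (-0.69 ± 0.17) were lower. Sstr2, Vipr2 and Sstr4 passed without D844 as well (1.42 ± 0.27, -1.22 ± 0.28 and -0.83 ± 0.18), and Cckbr took the place of Npy1r (-0.87 ± 0.33, FDR = 0.042). At day 8 Npy1r passed as lower (-0.85 ± 0.17, or -0.84 ± 0.14 without D844). At day 28 5 passed as lower, led by Sstr4 (-1.39 ± 0.22), Npy2r (-0.85 ± 0.30), the reelin signal adaptor Dab1 (-0.78 ± 0.15) and Npy1r (-0.77 ± 0.17), and without D844 Sstr4 alone (-0.91 ± 0.22, FDR = 0.0050). Without D844 and surrogate variables 4 passed as lower at day 28, Sstr4 (-0.94 ± 0.27), Vipr1 (-0.75 ± 0.24), Npy5r (-0.72 ± 0.20) and Dab1 (-0.67 ± 0.17). Thus at day 5 the gene of one somatostatin receptor passed as higher and that of another as lower, while Sst itself met the FDR limit alone in the same fit.

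**Figure D4:**
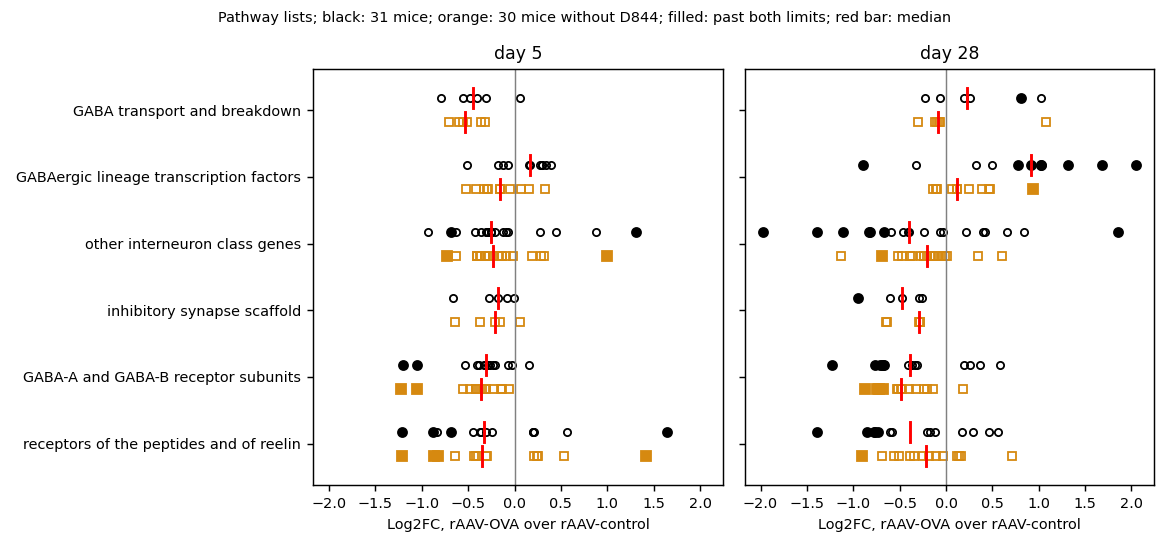
Log2FC of each gene of 6 lists at day 5 and day 28, with all 31 mice (black circles) and without D844 (orange squares), filled where past both limits, and the list median as a red bar. The GABAergic transcription factors have 8 filled circles at day 28 and 1 filled square, and the GABA receptor subunits 6 and 4.

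Among themselves the members did not vary as 1 block. After the 8 group means were subtracted from log2 CPM, Pearson's r over the 30 mice without D844 was 0.90 for Sst and Lhx6, 0.87 for Gad1 and Gad2, 0.85 for Gad1 and Reln and 0.77 for Reln and Lhx6. Pvalb and Cck had 0.64 with each other and -0.59 and -0.55 with Gad2. The batches of day 2 did not overlap for any of these 3 genes, and with the means of each group and batch subtracted instead, the values were 0.29, 0.025 and -0.086. The same step left 0.91 for Sst and Lhx6, 0.82 for Gad1 and Gad2 and 0.87 for Gad1 and Reln, and 1 mouse alone in its group and batch added nothing to it. With group means alone subtracted, the r of Npy with the other 8 genes lay between -0.26 and 0.13. With D844 included, Cck had -0.78 with Gad1 and -0.85 with Gad2, and the r of Gad1 and Gad2 was 0.96. The points share a dissection, a library and a depth each, so these are descriptions of 31 or 30 libraries.

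**Figure D5:**
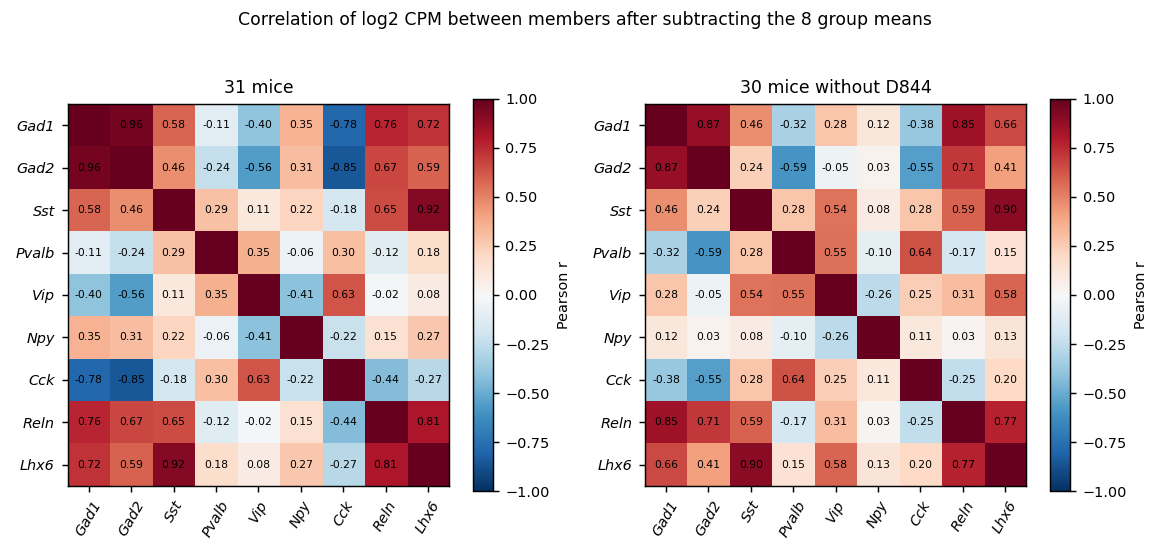
Pearson's r between the log2 CPM of the 9 genes after the 8 group means were subtracted, for 31 mice and for the 30 without D844. Sst with Lhx6 and Gad1 with Gad2 stay at 0.87 or above in both panels, and Cck with Gad1 goes from -0.78 to -0.38.

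For each member the 3 genes with the most similar log2 CPM over the 31 mice were listed by r. For Gad1 they were Gad2 (0.94), Tro (0.93) and Sgsm1 (0.92), and for Gad2 they were Usp29 (0.95), Gad1 (0.94) and Slc32a1 (0.93). Sst was closest to Lhx6 (0.90), Gjd2 (0.89) and Cend1 (0.88), and these remained its 3 closest without D844. Pvalb was closest to Prxl2b (0.91), Poldip2 (0.91) and Sirt3 (0.91), Npy to Gpd1 (0.90), Ttll11 (0.88) and Rimbp2 (0.86), and Reln to Atp8a2 (0.92), L1cam (0.91) and Arhgap32 (0.90). Vip was closest to Rxfp1 (0.86), Nxph3 (0.86) and Serpini1 (0.84), and Lhx6 to Sst (0.90), Ttc3 (0.90) and Zfr2 (0.90). Cck was closest to Fkbp1b (0.95), Emx1 (0.94) and Neurod6 (0.94), and without D844 to Actr3b (0.94), Fbll1 (0.93) and Tmem38a (0.93), so that 0 of its 3 closest genes were shared. Vip shared 0 as well, being closest to Mir124-2hg (0.87), Cfap90 (0.83) and Rnf227 (0.82) without D844. Of the 3 closest genes, 1 was shared for Gad1 (Gad2), Gad2 (Gad1) and Lhx6 (Zfr2), and 2 for Pvalb, Npy and Reln. Slc32a1 was not among the 3 closest to Gad2 without D844.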

How the data were processed

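RNA from 31 left hippocampi was sequenced as paired ends after TruSeq library preparation. The deposited values are expected counts per gene, which the authors made with fastp, Salmon 1.8.0 on GENCODE M29 and tximeta, with a minimum of 15 counts required in 15 mice or more, which left 15648 genes. A second deposited file with the same counts was not used. These expected counts, deposited as whole numbers, were fitted with edgeR 4.0.16 (TMM scaling, robust quasi-likelihood test) on 8 groups and 2 surrogate variables from sva 3.50.0, the authors' own model being DESeq2 1.36.0 with 2 surrogate variables. CPM are TMM-scaled, and log2 CPM had a prior count of 2. Total counts per mouse were 19046977 to 57407902. Lengths are the longest protein-coding transcript of GENCODE M21. Simulated counts were used to test the fit without surrogate variables, and the fit with them was not tested in this way. Alternatives were DESeq2 1.42.0, limma 3.58.1 with voom, other scalings and covariates, batches alone and each mouse left out. All 9 genes were named, with up to 4 passing genes per list by size of Log2FC and the 3 closest genes by r among those with a mean of at least 1 CPM. Further list genes were named after their values were seen. The values of some list genes are not reported here. The 9 genes and the lists were chosen with earlier results of these data known, and the fits without D844 that drop the surrogate variables or use the batch label, and the correlations within batches, were added after the data were seen.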

Additional observations from a re-analysis of the deposited data

Results flagged for a closer look

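At day 28 among the rAAV-OVA mice, D844 lay far from its 3 companions for Gad1 (gap of 0.871 of the group's range) and for Gad2 (0.888), at 692 and 630 CPM. Its striatal marker level of 1053 CPM stands beside these values, and its part in them was not tested.

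Pvalb in replicate 3 of the same group, mouse D845, was far below the others (gap of 0.902 of the range), at 13.98 CPM against 22.5 to 23.4 CPM. Reln in replicate 3 of the rAAV-OVA group at day 5, mouse D786, was far above the others (gap of 0.879), at 60.9 CPM against 41.5 to 43.9 CPM. Of 63 groups of 4 mice examined, 4 held such a value, and chance gives about 1 in 20.

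The response to rAAV-OVA differed among the 4 days for Pvalb (FDR = 0.0375) and Cck (FDR = 0.0194) in edgeR's interaction test. Of all genes 32.8% passed that test. With no surrogate variables neither passed (FDR = 0.060 and 0.086). The response of Npy differed between day 28 and day 5 by -0.76 on the log2 scale (FDR = 0.048, edgeR), and 9.48% of all genes passed this test. The difference was -0.73 without D844 (FDR = 0.11), -0.75 without surrogate variables (FDR = 0.095) and -0.86 without both (FDR = 0.051).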

How the results depend on the processing

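No paired analysis was possible because the labels give only an identifier for each mouse, so the replicate numbers used here, set in accession order, pair no mice. The batch label was fitted instead. Of the alternatives other than leaving out 1 mouse, 65 counts of members stayed within 1.5 times and 13 did not, and 410 Log2FC kept direction and side of the limits, 39 changed sign, 8 newly passed and 11 no longer did. The cause was not tested.

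Pan-neuronal scaling moved the all-gene median to -0.10, 0.22, 0.29 and 0.56 at days 2, 5, 8 and 28. With it 1 member passed at day 5 (Pvalb) and 3 at day 28 (Gad1 and Gad2 higher, Cck lower). In the interaction 1 member passed (Sst), beside 44.8% of all genes. Over all genes this scaling gave 226 lower of 2053 passing at day 5, 7 of 2450 at day 8 and 142 of 6187 at day 28. The main fit gave 739 of 2246, 89 of 1548 and 764 of 2763. Signs changed at day 2 for Pvalb (-0.029), Vip (-0.045), Cck (-0.092) and Lhx6 (-0.013), at day 5 for Vip (0.071), Reln (0.14) and Lhx6 (0.14), at day 8 for Gad1 (0.13), Gad2 (0.25), Sst (0.24), Npy (0.19), Reln (0.064) and Lhx6 (0.17), and at day 28 for Sst (0.36), Pvalb (0.095), Vip (0.10), Reln (0.43) and Lhx6 (0.39).

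DESeq2 with ashr passed 1 at day 5 (Pvalb), beside 10.5% of all genes, and limma gave -6.4e-04 for Cck at day 2. At day 28, 2 passed on FDR alone (Npy and Cck), beside 33.5% of all genes. Among mice of that day alone 0 members passed, beside 13.5% of all genes, and in batch 1 alone 0, beside 7.16%. In batch 2 alone 0 of all 15648 genes passed, so that this count says nothing about the members. Without D844 and surrogate variables 0 passed (24.5% of all genes passed, 1052 as lower). Without D844 and with the batch label 2 did (Pvalb and Cck, beside 24.6% of all genes, 1047 as lower). In the interaction 0 passed without surrogate variables, 1 in batch 1 alone (Pvalb) and 1 without D844 and surrogate variables (Cck), beside 25.3%, 14.4% and 31% of all genes.

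Without surrogate variables Gad1 was -0.23 and Gad2 -0.018 at day 5 and Gad1 -0.015 at day 28, and with the batch label -0.23, -0.018 and -0.12. Mice of the day alone gave Gad1 -0.19 at day 5 and -0.022 at day 28. Batch 1 alone gave Reln -0.041 at day 2 and Gad1 -0.66 and Gad2 -0.70 at day 28, and batch 2 alone at day 2 gave Sst -0.10, Pvalb -0.17 and Lhx6 -0.0073. Without D844, Gad1 was -0.19 at day 5 both without surrogate variables and with the batch label, and at day 28 Gad1 was -0.64 and -0.58 and Gad2 -0.52 and -0.47.

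Leaving out 1 mouse gave 1 to 3 members at day 5, 0 to 1 at day 8, 1 to 2 at day 28 and 0 to 2 in the interaction. The shares of all genes in the same fits were 11.8% to 16.3%, 2.7% to 11.7%, 10.9% to 20.9% and 15% to 37%. At day 2 the range was -0.037 to 0.46 for Gad2, -0.037 to 0.51 for Pvalb, -0.13 to 0.40 for Vip, -0.035 to 0.20 for Cck, -0.14 to 0.24 for Reln and -0.042 to 0.18 for Lhx6. At day 5 it was -0.069 to 0.36 for Gad1 and -0.57 to 0.11 for Vip. At day 8 it was -0.30 to 0.031 for Gad1, -0.21 to 0.31 for Gad2, -0.33 to 0.18 for Sst, -0.50 to 0.60 for Vip, -0.22 to 0.0031 for Npy, -0.51 to 0.26 for Reln and -0.33 to 0.087 for Lhx6. At day 28 it was -0.22 to 0.39 for Gad1, -0.14 to 0.89 for Gad2, -0.30 to 0.0066 for Sst, -0.998 to 0.23 for Vip, -0.42 to 0.20 for Reln and -0.28 to 0.10 for Lhx6. With 4 mice a group and counts from whole tissue, differences of the size of these SE are at the limit of what can be seen.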
